A study of Mus musculus with 15 samples.

Results

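RNA from 15 mouse kidneys was divided by its content of Havcr1, the gene of kidney injury molecule 1. The 5 libraries with a Havcr1 normalised count of at least 15 are called Havcr1-high, and the other 10 are called Havcr1-low. A normalised count is the number of reads assigned to a gene, scaled by the authors with 1 size factor per library, and 1 read was worth 0.895 to 1.13 of them. Of 19602 genes, 14650 reached a normalised count of 10 in 3 or more libraries and were described, with Havcr1 itself left out. Because the libraries were chosen by their measured Havcr1, differences between them are given as descriptions without a test. Tests below use the treatment labels in their place.

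All 4 folic acid kidneys of G3 mice and 1 of the 3 folic acid kidneys of WT mice were Havcr1-high. The Havcr1-low libraries were the other 2 WT folic acid kidneys, all 4 G3 vehicle kidneys and all 4 WT vehicle kidneys. G3 mice were Tert-/- animals of generation 3, which lack the catalytic subunit of telomerase, and WT mice were Tert+/+. Folic acid was injected once into the peritoneum at 125 mg/kg, vehicle was 200 µl of 0.3 M NaHCO3, and all kidneys were taken on day 14 after perfusion with cold phosphate-buffered saline. The mice were 6 to 8 weeks old and of both sexes per the labels. Replicate numbers only name libraries. The tissue is labelled as kidney, and markers of its main parts were read in every library. In Havcr1-high against Havcr1-low libraries, Slc34a1 (proximal tubule) was 5544 to 18101 against 10289 to 21705, Umod (thick ascending limb) 8555 to 19208 against 6649 to 13730.1 and Aqp2 (collecting duct) 875 to 1562 against 819 to 3257.

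Havcr1 codes for a membrane protein that healthy tubules make in very small amounts. Injured proximal tubule cells display it on their luminal side, where it binds phosphatidylserine and lets them engulf dying neighbours, and its shed outer part is a urinary marker of tubular injury. Excess folic acid damages tubules directly. Repair that stays incomplete is known to involve secreted injury proteins, recruitment of macrophages and deposition of collagen by fibroblasts.

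Havcr1 was 80.8, 58.2, 21.98 and 53.7 in G3 folic acid 1 to 4 and 44.2 in WT folic acid 1. It was 4.80 and 0.953 in WT folic acid 2 and 3. The vehicle kidneys had 0, 0, 3.25 and 9.02 in G3 and 2.26, 0, 1.92 and 4.995 in WT. The library just inside the threshold was G3 folic acid 3 and the one just outside it was G3 vehicle 4. These levels are low in absolute terms, at 22 to 89 reads in the Havcr1-high libraries.

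**Figure D1:**
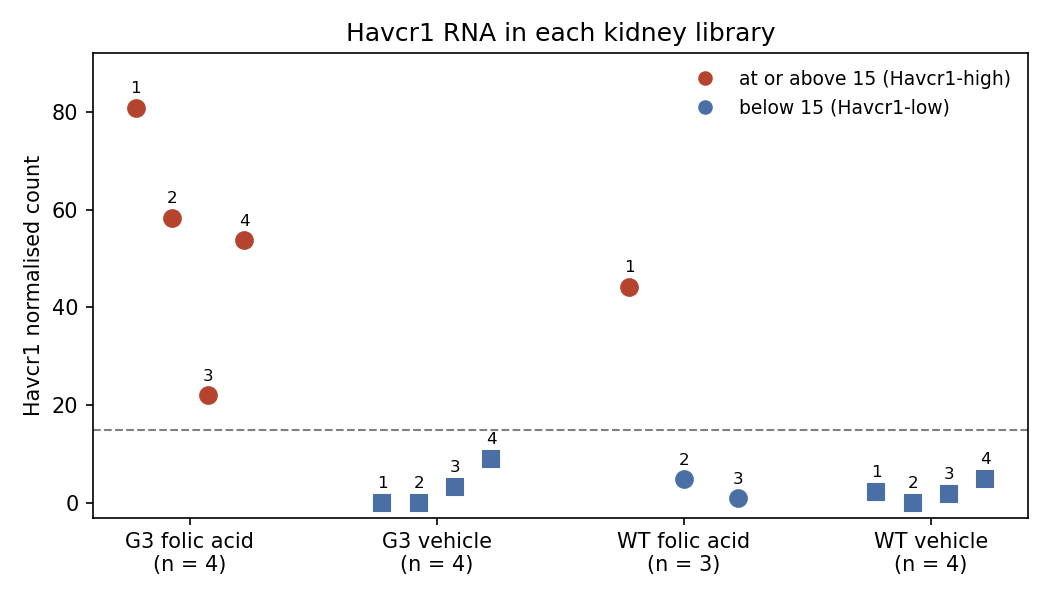
Havcr1 normalised count (linear axis) in each library by treatment label, with circles for folic acid, squares for vehicle, numbers for the replicate and a dashed line at 15. All 4 G3 folic acid libraries and WT folic acid 1 lie above the line, between 21.98 and 80.8, and the other 10 lie at 9.02 or less.

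Some properties of the libraries bear on what follows. Each held 5014684 to 6609307 reads assigned to genes. WT folic acid 1 had 23.0 percent of reads on Gm42418 alone, against 4.85 to 8.15 percent in the other 14. Xist, the RNA of the inactive X chromosome, and 4 genes of the Y chromosome (Uty, Ddx3y, Eif2s3y and Kdm5d) did not follow the labelled sex. Among the 5 Havcr1-high libraries 2 held Xist with little Y-linked RNA, 2 the reverse, and G3 folic acid 4 both kinds, and WT vehicle 2 also held both. By label, every WT folic acid and every G3 vehicle library held Xist with little Y-linked RNA, and every WT vehicle library held Y-linked RNA. The Y-linked sum as a share of the highest library averaged 0.387 (SD 0.382, n = 5) in Havcr1-high and 0.330 (SD 0.456, n = 10) in Havcr1-low kidneys. Mitochondrial transcripts took 22.3 to 25.7 percent of reads in Havcr1-high and 23.1 to 27.5 percent in Havcr1-low libraries. RNA quality scores averaged 6.3 (range 4.7 to 8.0) per the labels, without a value per library. The closest pairs of libraries were WT folic acid 2 and 3 (mean chi-square 3.01 per gene) and G3 vehicle 3 and 4 (2.88), the next pair having 7.25, and whether a pair came from 1 animal was not tested. Of the Havcr1-high libraries 4, all but WT folic acid 1, carry titles of 1 number series together with WT vehicle 4 and G3 vehicle 4.

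Genes that injured tubules are known to switch on were among those that differed most, led by Mmp7, Timp1 and Lcn2. Mmp7 (matrilysin, a secreted protease that epithelia make in response to Wnt signalling; chromosome 9, start 7692090, end 7699585, GRCm38, GENCODE M21) was 75.3, 47.0, 11.99 and 81.4 in G3 folic acid 1 to 4 and 120.3 in WT folic acid 1, against 0 to 3.05 (median 0) in the 10 Havcr1-low libraries, of which 7 were at 0. Timp1 (an inhibitor of matrix metalloproteinases; chromosome X, start 20870166, end 20874735) was 60.8, 26.3, 25.97 and 68.9 in G3 folic acid 1 to 4 and 80.5 in WT folic acid 1, against 0 to 12.03 (median 3.35) in the 10 Havcr1-low libraries. Lcn2 (NGAL, an iron-siderophore binding protein used like Havcr1 as a urinary injury marker; chromosome 2, start 32384633, end 32388252) was 185, 147, 34.0 and 226 in G3 folic acid 1 to 4 and 358 in WT folic acid 1, against 1.90 to 26.1 (median 14.3) in the 10 Havcr1-low libraries. For all 3 genes every Havcr1-high library lay above every Havcr1-low library, and G3 folic acid 3 was the lowest of the 5. The differences of mean log2(normalised count + 1), the scale of every difference below, were 5.31, 3.71 and 3.63. With most Havcr1-low libraries at 0, the size of the Mmp7 difference depends on the added 1. Since these are the leading injury genes, the 250 bases upstream of their RefSeq start sites (GRCm38.p6, 5′ to 3′ on the gene's strand) are shown, with a match to the AP-1 motif TGANTCA in capitals:
Mmp7, chr9:7691840-7692089, plus strand: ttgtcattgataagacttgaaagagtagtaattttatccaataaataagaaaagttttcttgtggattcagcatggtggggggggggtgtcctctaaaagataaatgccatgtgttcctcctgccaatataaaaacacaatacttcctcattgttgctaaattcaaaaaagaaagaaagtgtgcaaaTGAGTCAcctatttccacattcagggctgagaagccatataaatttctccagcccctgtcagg
Timp1, chrX:20869916-20870165, plus strand: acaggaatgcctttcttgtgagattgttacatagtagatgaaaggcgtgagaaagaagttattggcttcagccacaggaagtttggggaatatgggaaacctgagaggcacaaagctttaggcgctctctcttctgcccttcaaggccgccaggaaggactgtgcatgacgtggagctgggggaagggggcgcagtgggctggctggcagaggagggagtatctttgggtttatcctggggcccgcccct
Lcn2, chr2:32387740-32387989, minus strand: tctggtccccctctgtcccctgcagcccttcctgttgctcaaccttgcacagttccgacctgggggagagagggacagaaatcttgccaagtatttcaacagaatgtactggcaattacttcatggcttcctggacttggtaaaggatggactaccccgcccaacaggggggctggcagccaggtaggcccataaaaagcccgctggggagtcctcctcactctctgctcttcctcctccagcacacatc
The window of Mmp7 held 1 match, TGAGTCA, 63 to 57 bases before the start site. The windows of Timp1 and Lcn2 held no match to that motif, nor did any of the 3 windows shown hold TTCNNNGAA (STAT), CTTTGA (TCF/LEF) or the NF-kB motif (GGGA, any 4 bases, CC), searched on both strands. RefSeq lists a second start site for Mmp7 downstream of this one, and the window before it, which is not shown, held no AP-1 match and 1 match to CTTTGA on the minus strand (TCAAAG as read on the plus strand), 246 to 241 bases before that site. These motifs occurred in 6.73, 7.04, 17.7 and 13.9 percent of 32536 RefSeq windows of the same length in the order AP-1, STAT, NF-kB and TCF/LEF, and a match or its absence in such a window says nothing about binding.

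In total 217 of 14650 genes (1.48 percent) had every Havcr1-high library above every Havcr1-low library, and 51 (0.348 percent) had every one below. The 217 higher genes differed by a median of log2 1.33 (range 0.25 to 5.31), and 158 of them by at least 2-fold. The 51 lower genes differed by a median of only log2 -0.45, and 7 of them by at least 2-fold. G3 folic acid 3 was the lowest of the 5 Havcr1-high libraries in 160 of the 217 and WT folic acid 1 the highest in 119. The count of higher genes was 611 without G3 folic acid 3, and that of lower genes was 164 without it, 106 without WT folic acid 1, 93 without G3 folic acid 2 and 99 without G3 folic acid 4. In WT folic acid 2 and 3, which received folic acid but were Havcr1-low, 152 of the 217 genes lay within the range of the 8 vehicle libraries, as did 9683 of all 14650, a similar share. Only 10 of the 217 separated all 7 folic acid libraries from all 8 vehicle libraries, a separation shown by 38 genes (0.259 percent) upward and 11 (0.0751 percent) downward.

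Several other leading genes of the 217 are known from macrophages and related cells, of which Fcgr1, Lyz2 and Ms4a7 are on the macrophage list. Besides Mmp7, Timp1 and Lcn2, the 12 largest differences among genes averaging at least 20 in the higher group included Fcrls (3.86; an Fc receptor-like gene known from mouse microglia), Fcgr1 (3.40; the high-affinity IgG receptor of macrophages) and Lyz2 (3.26; lysozyme of myeloid cells). Ms4a7 (3.05; a macrophage membrane protein) and Clec7a (2.67; dectin-1, a receptor for fungal glucans) were also among them. Fcgr1 was 22.7, 36.6, 18.98 and 34.0 in G3 folic acid 1 to 4 and 21.6 in WT folic acid 1, against 0 to 6.99 (median 2.38) in the 10 Havcr1-low libraries, and had no read in any G3 vehicle library. Unlike Lyz2, Mmp7, Timp1 and Lcn2, Fcgr1 was nearly as high in G3 folic acid 3 as in WT folic acid 1. Lyz2 was 882, 773, 159 and 722 in G3 folic acid 1 to 4 and 945 in WT folic acid 1, against 34.1 to 102 (median 58.0) in the 10 Havcr1-low libraries. G3 folic acid 3 thus stood between the other 4 Havcr1-high libraries and the Havcr1-low range for Lyz2.

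The 4 of the 12 not tied to these roles were Adgra1 (3.29; an adhesion G protein-coupled receptor), Kif1a (3.02; a kinesin motor best known from axons), Serpina10 (2.88; an inhibitor of clotting factors that acts with protein Z) and Il18r1 (2.77; a chain of the interleukin 18 receptor). Serpina10 was 88.1, 82.7, 37.0 and 105 in G3 folic acid 1 to 4 and 137 in WT folic acid 1, against 3.996 to 22.9 (median 12.1) in the 10 Havcr1-low libraries. Kif1a was 29.0, 41.3, 24.0 and 39.4 in G3 folic acid 1 to 4 and 56.7 in WT folic acid 1, against 0.999 to 10.49 (median 3.86) in the 10 Havcr1-low libraries. Neither gene overlapped between the groups, and WT folic acid 1 had the most of both.

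**Figure D2:**
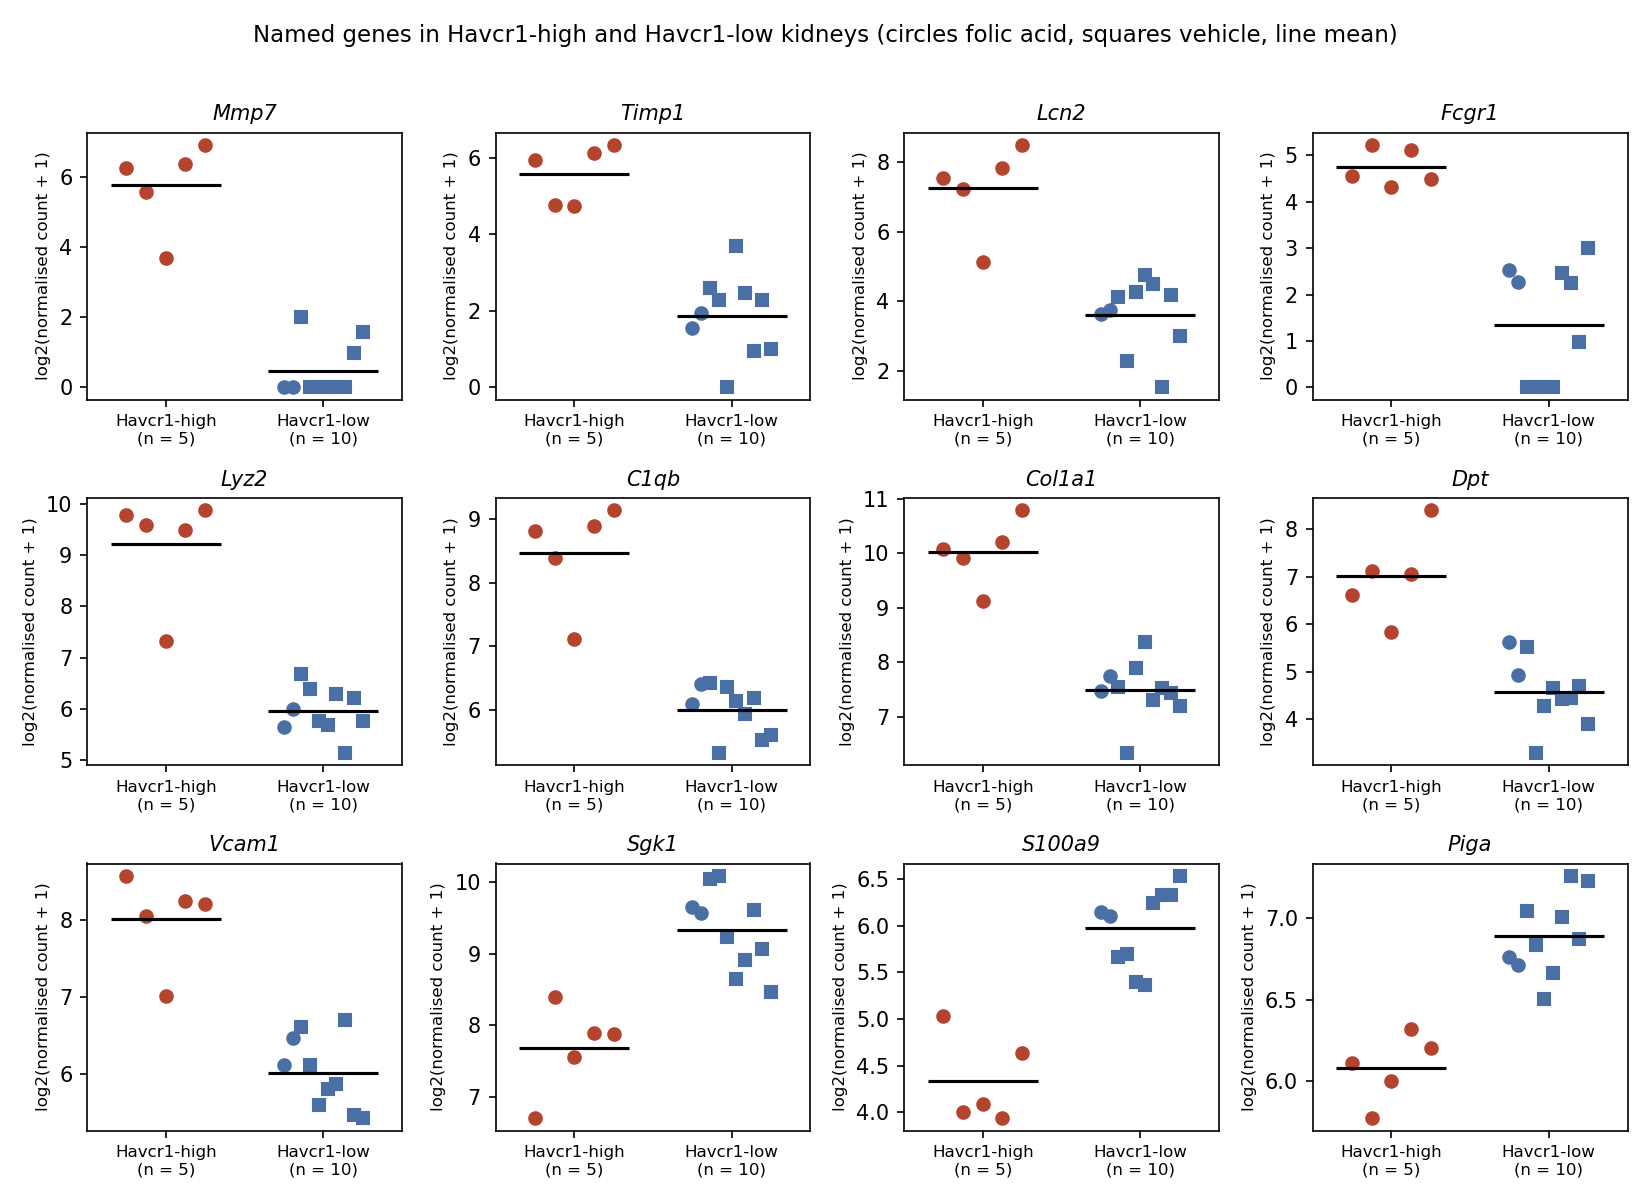
log2(normalised count + 1) of 12 named genes in the 5 Havcr1-high (left) and 10 Havcr1-low libraries (right), with circles for folic acid, squares for vehicle and a line at each mean. The groups do not overlap for any of the 12, the 2 Havcr1-low circles lie among the squares or next to them, and each panel has its own axis.

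Tubular injury genes were higher in Havcr1-high kidneys, in 18 of 20 members by the difference of means. The median was log2 0.92, against -0.02 over all 14650 genes, and 5 members (Lcn2, Timp1, Cd44, Vcam1 and Clu) did not overlap. Over all 14650 genes 46.8 percent were higher in mean, 1.48 percent lay wholly above and 0.348 percent wholly below. These shares are the background for every list below. Cd44, a hyaluronan receptor of activated cells, was 103, 62.9, 24.0 and 56.4 in G3 folic acid 1 to 4 and 47.6 in WT folic acid 1, against 8.64 to 19.5 (median 12.01) in the 10 Havcr1-low libraries. Vcam1, an adhesion molecule of tubule cells that fail to recover, was 380.4, 264, 128 and 303 in G3 folic acid 1 to 4 and 295 in WT folic acid 1, against 42.0 to 103 (median 62.9) in the 10 Havcr1-low libraries. The highest value of both was in G3 folic acid 1, the library with the most Havcr1. Clu (clusterin, a secreted chaperone) had 2697 to 5534 against 1449 to 2539 in Havcr1-high against Havcr1-low libraries, a difference of 1.06. Spp1 (osteopontin) and Krt20, a keratin of damaged tubules, overlapped, with Spp1 at 982 in G3 folic acid 3 and up to 1306 in G3 vehicle 4, and Krt20 at 5.99 in G3 folic acid 3 and up to 20.3 in G3 vehicle 1. Summed over the list the level was 6285 to 12407 in the Havcr1-high and 4248 to 5958 in the Havcr1-low libraries.

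Extracellular matrix genes made up the broadest block, with all 29 members higher in mean and 18 of 29 not overlapping (median log2 1.33). Over all genes 46.8 percent were higher in mean and 1.48 percent lay wholly above. Col1a1, a chain of type I collagen, was 1075, 968, 556 and 1175 in G3 folic acid 1 to 4 and 1769 in WT folic acid 1, against 80.1 to 331 (median 180.3) in the 10 Havcr1-low libraries. Col3a1, type III collagen, was 851, 724, 334 and 726 in G3 folic acid 1 to 4 and 1649.6 in WT folic acid 1, against 70.3 to 178 (median 145) in the 10 Havcr1-low libraries. In both collagens WT folic acid 1 had the most RNA and G3 folic acid 3 the least of the 5, yet G3 folic acid 3 still exceeded every Havcr1-low library. Fn1 (fibronectin) was 273, 323, 127 and 251 in G3 folic acid 1 to 4 and 706 in WT folic acid 1, against 22.5 to 109 (median 61.2) in the 10 Havcr1-low libraries. Mmp2, a gelatinase of fibroblasts, was 82.6, 122, 43.0 and 122 in G3 folic acid 1 to 4 and 244 in WT folic acid 1, against 8.99 to 28.1 (median 25.3) in the 10 Havcr1-low libraries. The basement membrane collagens Col4a1 and Col4a2 differed less (0.83 and 0.90) than the fibrillar ones (2.54 for Col1a1, 2.05 for Col1a2 and 2.51 for Col3a1), and this difference between differences was not tested. The largest difference on the list was that of Lox, the collagen cross-linking enzyme (2.81), although its lowest Havcr1-high value of 37.0 lay below the highest Havcr1-low value of 39.7. Summed matrix RNA was 9725 to 25101 in the Havcr1-high and 4072 to 6962 in the Havcr1-low libraries.

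Among genes of fibroblasts and mural cells, 3 of the 11 described did not overlap (median log2 0.57). Dpt (dermatopontin, a fibroblast matrix protein) was 96.2, 138, 55.9 and 132 in G3 folic acid 1 to 4 and 336 in WT folic acid 1, against 8.79 to 48.0 (median 22.5) in the 10 Havcr1-low libraries. Des (desmin, an intermediate filament of contractile cells) was 50.8, 59.2, 54.9 and 49.2 in G3 folic acid 1 to 4 and 60.1 in WT folic acid 1, against 21.5 to 38.9 (median 25.7) in the 10 Havcr1-low libraries, and varied little among the 5. Pdgfrb, the platelet-derived growth factor receptor of pericytes and fibroblasts, was 58.2 to 121 in the Havcr1-high and 22.7 to 53.01 in the Havcr1-low libraries. Genes of smooth muscle contraction overlapped and had differences below 0, with Acta2 at -0.16, Cnn1 at -0.77 and Myh11 at -0.80. As these are bulk samples, fewer or more cells of a type and less or more RNA per cell cannot be told apart, here and for every cell type list.

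**Figure D3:**
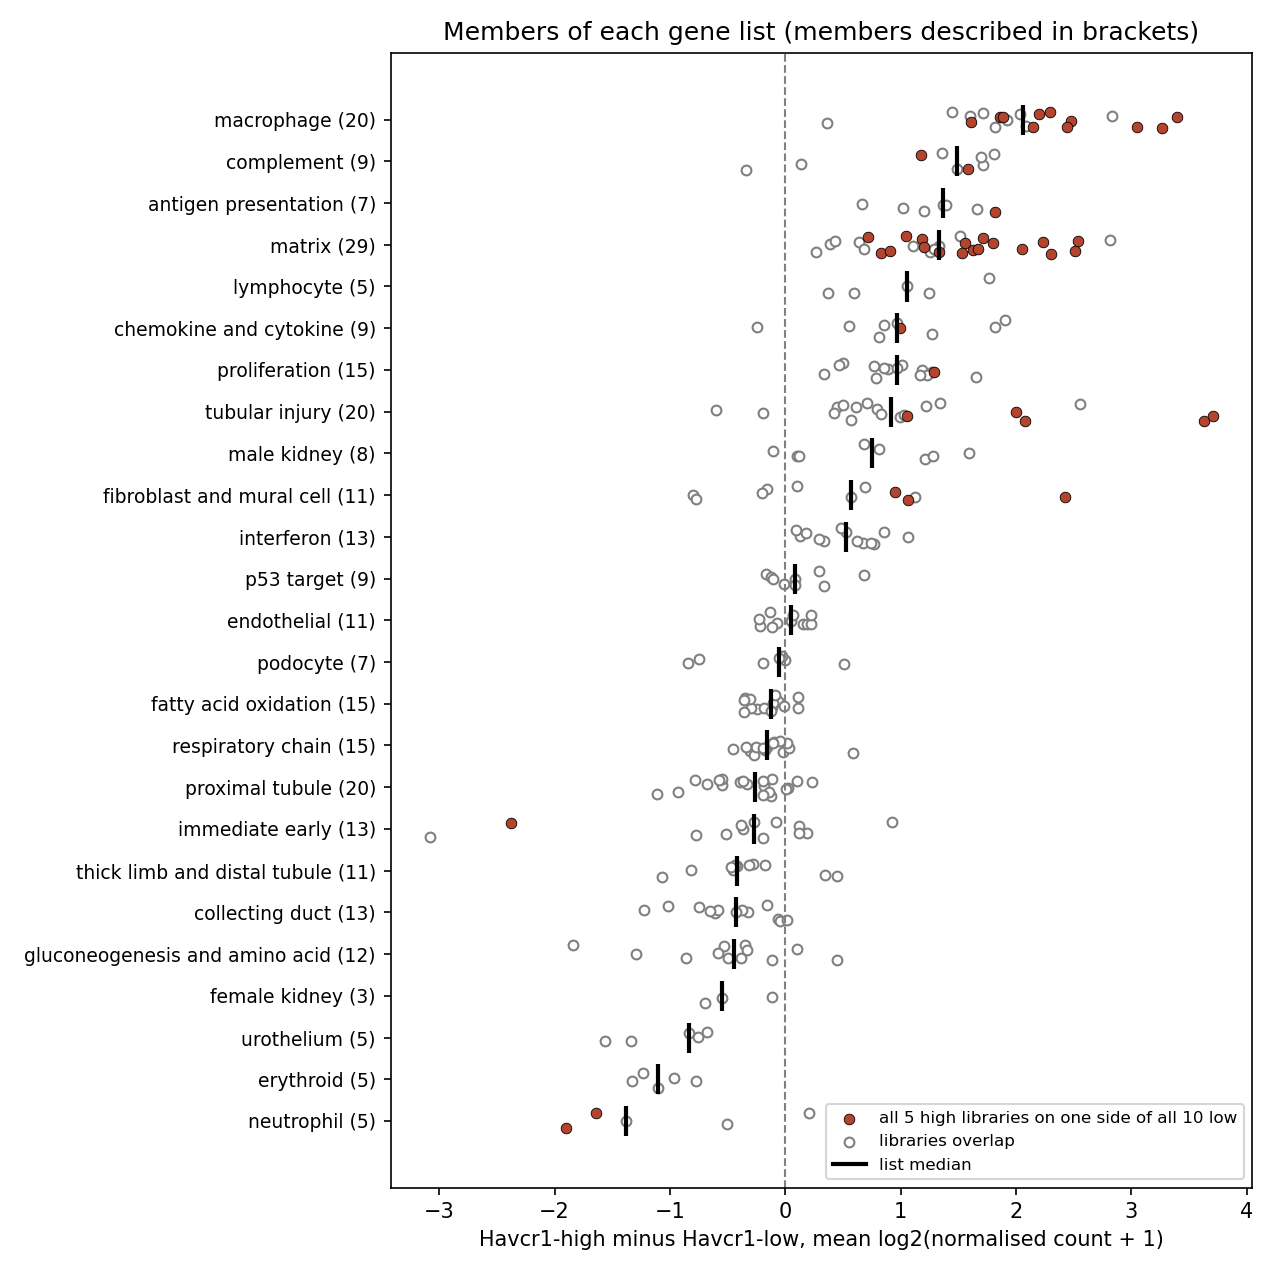
Difference of mean log2(normalised count + 1), Havcr1-high minus Havcr1-low, for each described member of the lists with at least 3 such members (number in brackets); filled points did not overlap and bars are list medians. Macrophage, complement, antigen presentation and matrix lists lie at the top (medians 2.06, 1.49, 1.37 and 1.33) and neutrophil genes at the bottom (-1.38).

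Macrophage genes had the highest median of the 27 gene lists with a median, apart from a list made later (log2 2.06), with 20 of 20 members higher in mean and 11 not overlapping: Fcgr1, Lyz2, Ms4a7, C1qb, C1qc, Itgam, Cx3cr1, Tyrobp, Ctss, Fcer1g and Cd68. C1qb, a chain of the complement starter C1q that tissue macrophages make, was 450.3, 335, 138 and 474 in G3 folic acid 1 to 4 and 563 in WT folic acid 1, against 39.1 to 84.4 (median 68.2) in the 10 Havcr1-low libraries. Cx3cr1, the fractalkine receptor of resident macrophages, was 123 to 430.3 in the Havcr1-high and 35.2 to 93.6 in the Havcr1-low libraries. Csf1r, the receptor for macrophage growth factors, differed least on the list (0.36; 700.3 to 1300.1 in the Havcr1-high and 497 to 1094 in the Havcr1-low libraries). Summed macrophage RNA was 1982 to 5991 in the Havcr1-high and 1142 to 1877 in the Havcr1-low libraries, and in all 20 genes G3 folic acid 3 was the lowest of the 5 Havcr1-high libraries, as it was in 3351 of all 14650 genes.

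Genes of antigen presentation on MHC class II were higher in mean in 7 of 7 (median log2 1.37), and H2-Eb1 alone did not overlap. H2-Eb1, a class II beta chain, was 2474, 1929.7, 568.4 and 1359.8 in G3 folic acid 1 to 4 and 2803 in WT folic acid 1, against 298 to 529.8 (median 475) in the 10 Havcr1-low libraries. Its value in G3 folic acid 3 was thus close to the Havcr1-low range, while the other 4 were more than 2-fold above it. Of 12 lymphocyte genes 5 were described, none of which separated the groups, with Cd3d (a T cell receptor chain) at 4.47 to 24.96 in the Havcr1-high and 0 to 10.2 in the Havcr1-low libraries and Ptprc (CD45, carried by all white blood cells) at 124 to 338 in the Havcr1-high and 72.3 to 147 in the Havcr1-low libraries. This lack of separation is near the share over all genes, of which 1.48 percent lay above.

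Complement genes had a median of log2 1.49 over 9 members. C1ra, a protease of the C1 complex, was 106, 78.9, 66.9 and 88.6 in G3 folic acid 1 to 4 and 106 in WT folic acid 1, against 19.5 to 61.7 (median 37.8) in the 10 Havcr1-low libraries, and separated the groups. C3, the central component (1.81), and Serping1, the C1 inhibitor (1.696), overlapped, with 209 to 710.3 against 49.95 to 319 and 629 to 1599.6 against 129 to 660.0 in Havcr1-high against Havcr1-low libraries. Cfb, the protease of the alternative pathway, had a difference of -0.34.

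Of 16 chemokine and cytokine genes 9 were described, and Cxcl16, a membrane-bound attractant of T cells and fibrocyte precursors, was the only one not to overlap. Cxcl16 was 465, 341, 257 and 449 in G3 folic acid 1 to 4 and 491 in WT folic acid 1, against 150.4 to 246 (median 188) in the 10 Havcr1-low libraries. Ccl5 and Ccl8, attractants of T cells and monocytes, overlapped with differences of 1.90 and 1.81, and Tgfb1, the growth factor of scarring, differed by -0.25. Interferon-induced genes were higher in mean in 13 of 13 (median log2 0.52). None separated the groups, which for a list of this size is near the share over all genes (1.48 percent above). Isg15, a ubiquitin-like protein, was 58.1, 66.7, 19.98 and 56.4 in G3 folic acid 1 to 4 and 48.8 in WT folic acid 1, against 12.3 to 30.3 (median 22.5) in the 10 Havcr1-low libraries, so that G3 folic acid 3 fell inside the Havcr1-low range. Ifit1, an RNA-binding antiviral protein, was 35.96 to 89.3 in the Havcr1-high and 19.9 to 59.0 in the Havcr1-low libraries.

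Of 5 neutrophil genes 4 were lower in mean. S100a9, a subunit of calprotectin, was 31.8, 15.0, 16.0 and 14.3 in G3 folic acid 1 to 4 and 23.8 in WT folic acid 1, against 40.1 to 91.9 (median 68.9) in the 10 Havcr1-low libraries. Retnlg, a resistin-like protein of granulocytes, was 0.908, 1.88, 3.996 and 1.79 in G3 folic acid 1 to 4 and 3.40 in WT folic acid 1, against 4.01 to 24.4 (median 12.4) in the 10 Havcr1-low libraries. Both were lower in every Havcr1-high than in any Havcr1-low library. For Retnlg this rests on the size factors alone, since its closest libraries, G3 folic acid 3 and G3 vehicle 4, held the same number of reads. S100a8, the partner of S100a9, overlapped (9.39 to 44.5 in the Havcr1-high and 37.1 to 109.9 in the Havcr1-low libraries), as did Csf3r and Cxcr2, and the list median was log2 -1.38. The erythroid list was lower as well (median log2 -1.10), with Hba-a2 at 2417 to 7722 in the Havcr1-high and 7541 to 15807 in the Havcr1-low libraries and all 5 members overlapping. That all overlapped is near the share over all genes, of which 0.348 percent lay below. The alpha globin genes Hba-a1 and Hba-a2 are near-identical copies, so their split is uncertain.

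Genes of dividing cells were higher in mean in all 15 members described (median log2 0.96), and Cenpf, a kinetochore protein of mitosis, did not overlap. Cenpf was 70.8, 61.1, 47.0 and 77.8 in G3 folic acid 1 to 4 and 48.8 in WT folic acid 1, against 11.7 to 43.2 (median 23.2) in the 10 Havcr1-low libraries. Mki67 (Ki-67) was 89.0, 129.6, 33.0 and 95.7 in G3 folic acid 1 to 4 and 95.3 in WT folic acid 1, against 20.5 to 54.1 (median 30.2) in the 10 Havcr1-low libraries, with G3 folic acid 3 inside the Havcr1-low range. Targets of p53 showed no shared direction (median log2 0.08, 5 of 9 higher in mean), and Cdkn1a (p21, which halts the cell cycle) was 195 to 251 in the Havcr1-high and 129.8 to 411 in the Havcr1-low libraries. Of 13 immediate early genes 9 were lower in mean, and Nr4a1, an orphan nuclear receptor, was the only one not to overlap (0 to 4.54 in the Havcr1-high and 6.72 to 41.3 in the Havcr1-low libraries), while Fosb overlapped at 0 to 2.27 against 1.002 to 50.8.

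Markers of nephron segments were lower in mean in most members without separating the groups. No member of the proximal tubule (20 genes), thick limb and distal tubule (11), collecting duct (13), podocyte (7) or endothelial (11) lists had all Havcr1-high libraries on one side, and the medians were log2 -0.26, -0.41, -0.43, -0.06 and 0.05 in that order. Over all genes only 1.48 percent lay above in this way and 0.348 percent below. The lack of such members in lists of this size is near that share. Slc5a12, a lactate transporter of the proximal tubule, was 822, 662, 756 and 832 in G3 folic acid 1 to 4 and 362 in WT folic acid 1, against 750.3 to 2249 (median 1558) in the 10 Havcr1-low libraries. Miox, the kidney enzyme that breaks down inositol, was 10653 to 17426 in the Havcr1-high and 12959 to 35668 in the Havcr1-low libraries. Pvalb, a calcium buffer of the distal convoluted tubule, was 55.6 to 129 in the Havcr1-high and 115 to 328 in the Havcr1-low libraries. Lrp2 (megalin, the endocytic receptor that takes up filtered protein) was 4109, 5498, 5815 and 4626 in G3 folic acid 1 to 4 and 8702 in WT folic acid 1, against 6129 to 12467 (median 8704) in the 10 Havcr1-low libraries, so WT folic acid 1 equalled the Havcr1-low median and the 4 G3 libraries lay below every Havcr1-low library. Slc12a3, the thiazide-sensitive salt transporter, was 3117, 3699, 4172 and 3289.5 in G3 folic acid 1 to 4 and 781 in WT folic acid 1, against 2464 to 7014 (median 4915) in the 10 Havcr1-low libraries. Slc26a4 (pendrin) was 133, 139, 131 and 111 in G3 folic acid 1 to 4 and 27.2 in WT folic acid 1, against 121 to 314 (median 194) in the 10 Havcr1-low libraries. In both, WT folic acid 1 stood far below the 4 G3 libraries.

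Metabolic genes of the tubule had median differences close to 0 or below it. Medians were log2 -0.13 for 15 genes of fatty acid oxidation, -0.16 for 15 of the respiratory chain and -0.44 for 12 of gluconeogenesis and amino acid breakdown, and none of these genes separated the groups. This too is near the share over all genes, of which 1.48 percent lay above and 0.348 percent below. Ppargc1a, a regulator of mitochondrial number, was 491, 613, 596 and 544 in G3 folic acid 1 to 4 and 700.0 in WT folic acid 1, against 626 to 833 (median 758) in the 10 Havcr1-low libraries. The 4 G3 values lay below all Havcr1-low values and the WT one did not. Hpd, an enzyme of tyrosine breakdown, was 66.9 to 167 in the Havcr1-high and 75.8 to 632 in the Havcr1-low libraries, and Bhmt, which remethylates homocysteine, was 2.997 to 24.4 in the Havcr1-high and 5.65 to 198 in the Havcr1-low libraries.

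Among genes averaging at least 20 in Havcr1-low kidneys, the 12 with the largest differences that were lower in every Havcr1-high library were S100a9, Sgk1, Myzap, Unc5c, Sfrp2, Tob2, Piga, F13b, Rhobtb1, Mecomos, Taf1a and Slc35f2, at -1.64 to -0.65. Sgk1, a kinase induced by aldosterone and glucocorticoids that keeps sodium channels at the membrane, was 103, 336, 188 and 238 in G3 folic acid 1 to 4 and 235 in WT folic acid 1, against 353 to 1084 (median 679) in the 10 Havcr1-low libraries. Unc5c, a netrin receptor, was 28.1, 28.2, 21.98 and 28.6 in G3 folic acid 1 to 4 and 14.7 in WT folic acid 1, against 37.9 to 78.7 (median 47.2) in the 10 Havcr1-low libraries. Sgk1 averaged 220.1 ± 84.7 in Havcr1-high and 683 ± 254 in Havcr1-low kidneys (SD, n = 5 and 10). Piga, which starts the synthesis of membrane glycolipid anchors, was 53.6 to 78.7 in the Havcr1-high and 89.8 to 153 in the Havcr1-low libraries. Myzap, a protein of cell junctions, was 26.8 to 38.5 in the Havcr1-high and 48.6 to 153 in the Havcr1-low libraries, and Sfrp2, a secreted antagonist of Wnt ligands, was 6.81 to 15.0 in the Havcr1-high and 15.0 to 37.9 in the Havcr1-low libraries. The Sfrp2 ranges meet at 15.0 and are apart by less than 1 read. The remaining genes were Tob2, F13b (a subunit of clotting factor XIII), Rhobtb1, Taf1a (a factor of RNA polymerase I), Slc35f2 and the antisense RNA Mecomos, whose reads may not be separable from its neighbour, since no source used here states whether counting used strand.

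The 5 Havcr1-high kidneys were not alike. Taking for each list the median over its members of the log2 level relative to the Havcr1-low mean, macrophage genes stood at 2.50, 2.26, 0.75 and 2.23 in G3 folic acid 1 to 4 and at 2.53 in WT folic acid 1. Matrix genes stood at 1.13, 1.19, 0.79 and 1.44 in G3 folic acid 1 to 4 and at 2.15 in WT folic acid 1. G3 folic acid 3, with the least Havcr1 of the 5, was the lowest for macrophage, matrix, injury, antigen presentation, complement, interferon and proliferation lists. WT folic acid 1 was the highest of the 5 in 28 of 29 matrix genes and the lowest in 14 of 20 proximal tubule genes (median -1.15, against -0.52 to 0.24 in the 4 G3 libraries). Over all 14650 genes WT folic acid 1 was the highest in 4292 and the lowest in 4051. WT folic acid 1 is the library with the excess of Gm42418, whose part in these values was not tested.

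**Figure D4:**
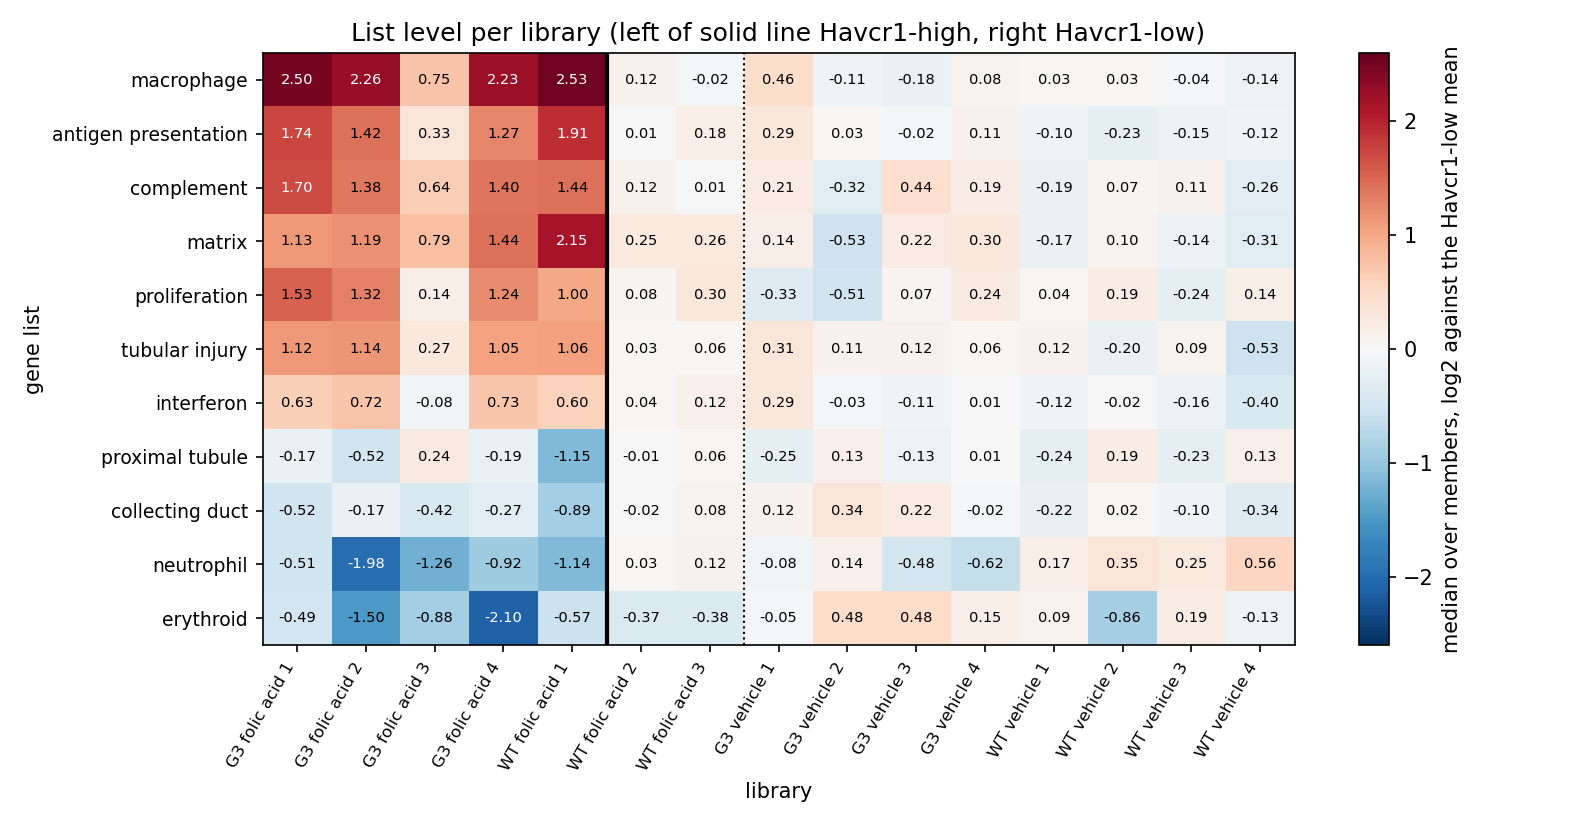
Level of 11 gene lists in every library, as the median over members of log2(normalised count + 1) minus the mean of the 10 Havcr1-low libraries, with Havcr1-high libraries left of the solid line, then the 2 Havcr1-low folic acid libraries and the 8 vehicle libraries. G3 folic acid 3 is the palest of the 5 for macrophage genes (0.75, against 2.23 to 2.53), and WT folic acid 2 and 3 resemble the vehicle libraries in most lists.

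The 2 WT kidneys that were given folic acid but were Havcr1-low lay near the vehicle kidneys. Their macrophage level was 0.12 and -0.02 and their tubular injury level 0.03 and 0.06 on the same scale, against -0.53 to 0.31 in the 8 vehicle kidneys for injury genes. Lcn2 was 11.5 and 12.4, Timp1 1.92 and 2.86, and Mmp7 0 in both. Their matrix level of 0.25 and 0.26 was within the vehicle range of -0.53 to 0.30. A few genes set them apart from vehicle together with the Havcr1-high kidneys: Clu was 2539 and 2442, against 2367 or less in vehicle, and Fn1 was 109 and 104, against 98.2 or less. Bgn (biglycan), Sparc (osteonectin), Nid1 (nidogen), Col4a1, Cxcl16 and H2-DMa, which loads peptides onto class II molecules, likewise had all 7 folic acid libraries above all 8 vehicle libraries.

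Folic acid was tested against vehicle by label, without use of Havcr1, as the mean of the effects in G3 and WT. Limma with Benjamini-Hochberg adjustment over 14651 genes called 209 genes higher (1.43 percent) and 53 lower (0.362 percent), with 2739 at an unadjusted p under 0.05. The effect differed between G3 and WT in 560 genes (3.82 percent), and on leaving out 1 library in 253 (without WT vehicle 4) to 926 (without WT vehicle 2). With labelled sex as a term this number was 103, and with the Y-linked share 2. Of the calls, 82 called higher were also above in every Havcr1-high library, which is 37.8 percent of the 217 and 39.2 percent of the 209, and 6 were lower in both senses, 11.8 percent of the 51 and 11.3 percent of the 53. Since 5 of the 7 folic acid libraries are the Havcr1-high ones, neither this overlap nor a call of a gene named for its difference is independent support. The number of calls hung on single libraries. Limma called 0 genes without any one of G3 folic acid 1, 2 or 4, G3 vehicle 2 or WT vehicle 1, with 2209 to 2563 genes at an unadjusted p under 0.05 in these fits. It called 3 genes higher and 0 lower without WT vehicle 3, 2 and 0 without WT vehicle 4, 31 and 2 without WT folic acid 1, 62 and 9 without G3 vehicle 4, and 98 and 16 without G3 vehicle 3. It called 321 and 125 without WT vehicle 2, 350 and 104 without WT folic acid 2, and 476 and 214 without G3 folic acid 3. With the Y-linked share as a term limma called 0 genes (2246 at an unadjusted p under 0.05), while without that term edgeR called 402 higher and 64 lower and DESeq2 620 higher and 242 lower. The Y-linked share was 0.0110 to 0.0340 in WT folic acid and 0.327 to 1.0 in WT vehicle libraries. Treatment and sex-linked RNA therefore cannot be told apart within WT. G3 was not free of this imbalance, which ran the other way. There the share was 0.00113 to 0.00873 in vehicle and 0.0173 to 0.800 in folic acid libraries.

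Of the 87 genes named by rule 24 were called by label, Havcr1 included, whose own values made the groups. Besides Havcr1, the called genes with the largest estimates were Fcgr1 (log2 2.87, SE 0.40, limma adjusted p = 0.0212), Kif1a (log2 2.52, SE 0.48, limma adjusted p = 0.0315) and Serpina10 (log2 2.39, SE 0.43, limma adjusted p = 0.0308). With 4 libraries at 0, the Fcgr1 estimate depended on the method and was 1.64 with a pseudocount of 5 and 4.56 with edgeR. Mmp7 was not called (log2 3.32, SE 0.86, limma adjusted p = 0.0548), nor were Timp1 (log2 2.43, limma adjusted p = 0.0648), Lcn2 (log2 2.53, limma adjusted p = 0.0638), Fcrls, Adgra1, Ms4a7 or Il18r1. By list, 13 of 29 matrix genes rose, among them Fn1 (log2 2.10), Col1a1 (1.80) and Col3a1 (1.77). Of 20 macrophage genes 9 rose, among them Lyz2 (2.13) and C1qb (1.82), and of 20 injury genes Vcam1, Spp1 (1.17) and Clu (0.90) did. Dpt (2.08), Des (0.76), Cxcl16 (0.84) and Cenpf (1.18) rose as well, as did the macrophage growth factor Csf1, Ifitm3, Top2a, H2-DMa and the endothelial receptor Eng. Nr4a1 fell by 1.96 on the log2 scale, Hba-a1 by 1.16, S100a9 by 0.999, Myzap by 0.99, Hba-a2 by 0.90, Rhobtb1 by 0.63 and Piga by 0.62. Sgk1 was not called (log2 -0.92, limma adjusted p = 0.114). Over all genes 1.43 percent were called higher and 0.362 percent lower. No gene of the proximal tubule, thick limb and distal tubule, collecting duct, podocyte, fatty acid oxidation, respiratory chain or gluconeogenesis and amino acid lists was called, which is near that share. None of these calls held without any one of G3 folic acid 1, 2 or 4, G3 vehicle 2 or WT vehicle 1, or with the Y-linked share as a term, and each of the 24 was kept in 11 to 21 of the 28 or 29 alternatives run. Estimates kept their direction in all of these. Without WT folic acid 1 they were log2 2.52 for Fcgr1, 1.65 for Fn1, 1.27 for Col1a1, 1.34 for C1qb, 1.45 for Lyz2, 1.18 for Col3a1 and -1.71 for Nr4a1. With the Y-linked share they were 2.78 for Fcgr1, 1.91 for Fn1, 1.73 for Col1a1, 1.71 for C1qb, 2.11 for Lyz2, 1.82 for Col3a1 and -1.91 for Nr4a1.

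**Figure D5:**
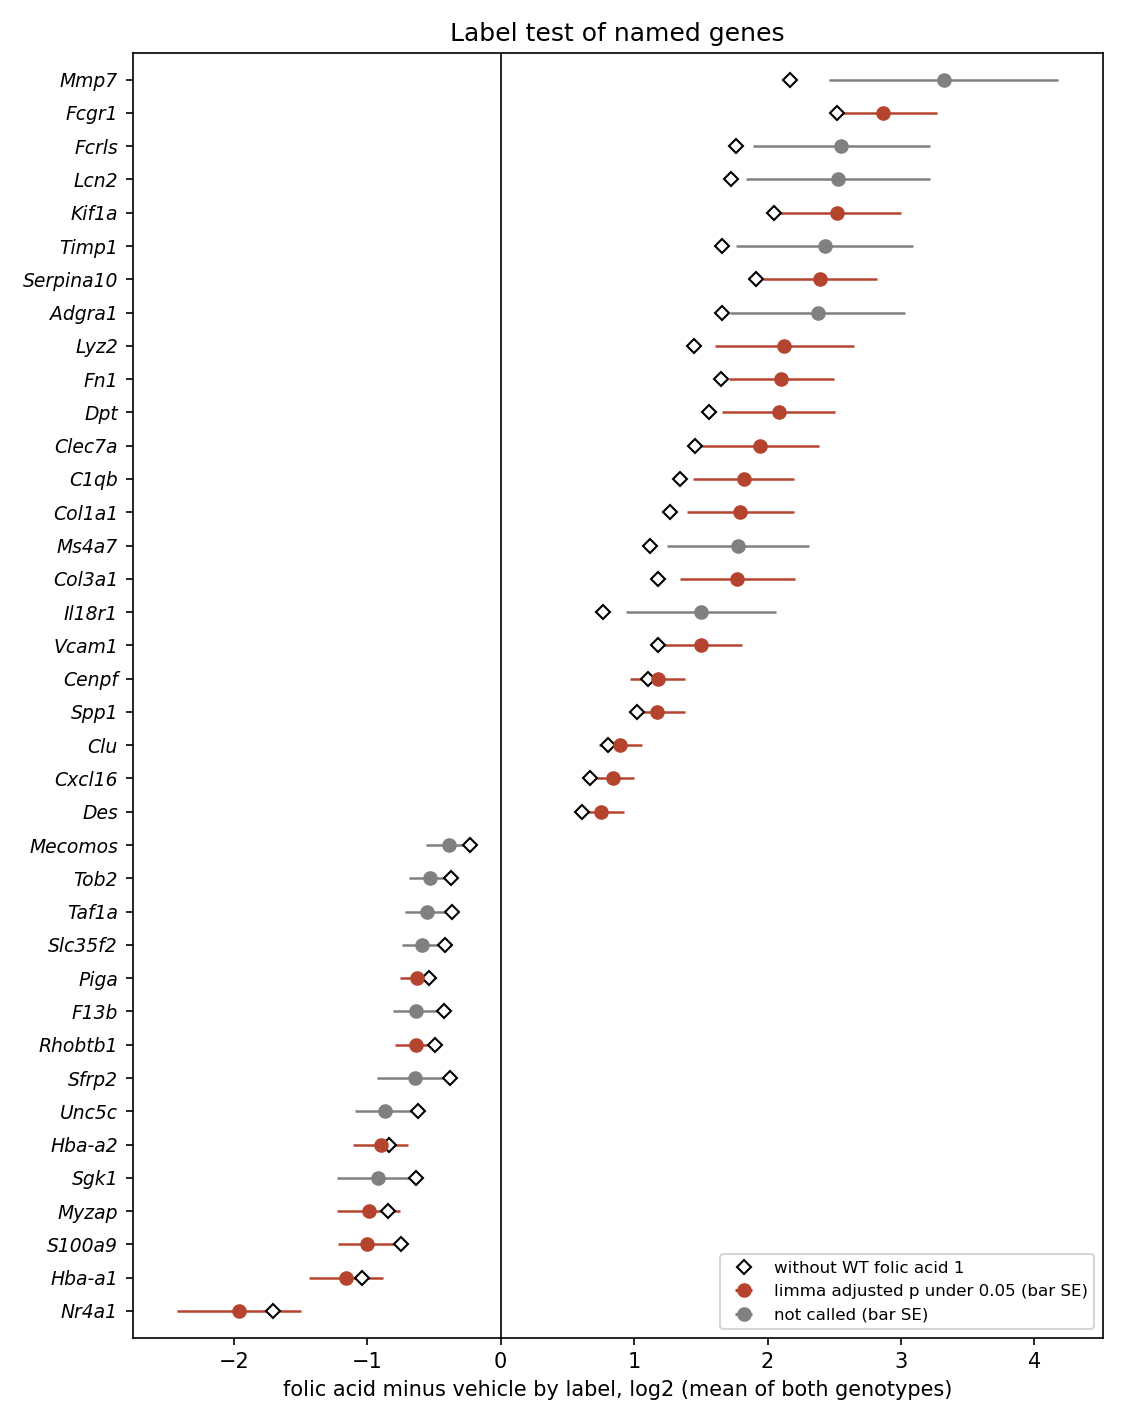
Folic acid minus vehicle by label (log2, mean of both genotypes, bars are SE) for the 12 non-overlapping genes with the largest Havcr1-high minus Havcr1-low differences each way among those averaging at least 20 in the higher group, and the other named genes that were called, with called genes in red and open diamonds for the estimate without WT folic acid 1. Mmp7 has the largest estimate (3.32) with the widest error (0.86), and every open diamond lies on the same side of 0 as its point.

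Within libraries of like Xist and Y-linked RNA, the medians of the macrophage, matrix, injury and neutrophil lists kept their direction and those of several other lists did not. In the 8 libraries with Xist and little Y-linked RNA (2 Havcr1-high, 6 Havcr1-low) the medians were log2 2.19 for macrophage, 1.63 for matrix, 0.95 for injury and -1.41 for neutrophil genes. In the 5 with Y-linked RNA and little Xist (2 Havcr1-high, 3 Havcr1-low) they were 1.66, 1.23, 0.68 and -0.83 in the same order. Those 5 are G3 folic acid 1 and 3 against WT vehicle 1, 3 and 4, so Havcr1 class, treatment and genotype cannot be told apart there. Within the shared title number series (4 Havcr1-high, 2 Havcr1-low) the medians were 1.97, 1.33, 0.91 and -1.07. Among G3 libraries alone they were 1.75, 1.10, 0.73 and -0.96. In the title series and among G3 libraries, Havcr1 class and treatment are the same division and cannot be told apart. The thick limb and distal tubule median was -0.37 in the libraries with Xist and 0.04 in those with Y-linked RNA, that of podocyte genes -0.52 and 0.49, and that of gluconeogenesis and amino acid genes -0.99 and 0.12. Immediate early genes stood at 0.03 and -0.58 in the same order. Endothelial genes and p53 targets, with medians near 0 over all libraries, also changed sign in those with Y-linked RNA (-0.02 and -0.05). Proximal tubule genes stood at -0.69 in the libraries with Xist and at -0.06 in those with Y-linked RNA, and at -0.14 without WT folic acid 1. Genes that differ between male and female mouse kidney had medians of log2 0.75 (8 male-biased) and -0.54 (3 female-biased), with none separating the groups, near the share over all genes. Those medians were -0.08 and -0.39 in the libraries with Xist, and -0.44 and 0.96 in those with Y-linked RNA. Slco1a1, a male-biased transporter, was 792, 4.70, 1323 and 514 in G3 folic acid 1 to 4 and 44.2 in WT folic acid 1, against 1.95 to 2005 (median 10.3) in the 10 Havcr1-low libraries.

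Markers of tissue that dissection can carry along had no higher medians in the Havcr1-high kidneys. Urothelial genes (5 members, median log2 -0.84) summed to 6.99 to 86.2 in the Havcr1-high and 14.7 to 406 in the Havcr1-low libraries. Adipose genes (2 of 4 described) summed to 0 to 359 in the Havcr1-high and 14.3 to 1954 in the Havcr1-low libraries, with Adipoq, the fat cell hormone, at 0 in WT folic acid 1 and at 43.0 in G3 folic acid 3. The adrenal list had 1 described member of 4, Star, at 5.67 to 14.3 in the Havcr1-high and 3.91 to 21.6 in the Havcr1-low libraries, and no skeletal muscle gene reached the level described.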

How the data were processed

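Per the labels' protocols, libraries were made from kidney RNA with the QuantSeq 3′ FWD kit, which reads the 3′ end of transcripts, so a value does not scale with transcript length. The submitters' processing notes name FastQC 0.11.7, TopHat2 2.0.10 with Bowtie 1.0.0, SAMtools 0.1.19, HTSeq 0.6.1, DESeq2 and the GRCm38 build. Gene filter, annotation release and strand handling are stated in no source used here. The deposited signal is 1 table of 19602 genes by 15 libraries, in which the authors had scaled each library's read counts with its own size factor. All values were whole multiples of 1 step per library within 0.001, which gave back the read counts (100% of values).

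Libraries were grouped by Havcr1 at a threshold of 15, and genes reaching a value of 10 in 3 or more libraries were described by library values, means, SDs, differences of mean log2(value + 1) and non-overlap, with no test. Folic acid was tested by label with limma 3.58.1 (R 4.3.3, mean-variance trend, 4 label groups, no sex term) on log2(value + 1), with Benjamini-Hochberg adjustment over 14651 genes and a call at adjusted p under 0.05. Recovered counts went through edgeR 4.0.16 and DESeq2 1.42.0 as alternatives, beside other thresholds, filters, scalings, pseudocounts, sex terms and left-out libraries. The fit was tested on simulated data. The labels name each library as a separate sample without saying that each came from its own mouse, so p-values measure the spread between these libraries.

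The members, 28 gene lists and tests were chosen with earlier results of these data known. Named were the 12 largest differences each way among non-overlapping genes averaging at least 20 in the higher group, up to 4 non-overlapping (otherwise 2) members per list, and a panel of injury, segment and sex genes (87 in all). Results of some genes are not reported here. Other list members are examples chosen after their values were seen. Gene positions are from GENCODE M21, which held 19509 of the symbols, and promoters from RefSeq. Counting limits precision most for genes of a few reads.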

Additional observations from a re-analysis of the deposited data

Results flagged for a closer look

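Single libraries stood apart from the rest of their group in 11 of the 172 gene and group combinations examined, where chance flags about 1 in 20. Over both groups together the number of flags is thus near the chance share. They were unevenly spread, since all but that of H2-Eb1 fell among the Havcr1-high libraries, on G3 folic acid 3 or WT folic acid 1. Among the 5 Havcr1-high kidneys G3 folic acid 3 stood low in 5 genes, given with the range of the other 4 in brackets. Lyz2 was 159 (722 to 945), Ms4a7 40.0 (88.6 to 117), Isg15 19.98 (48.8 to 66.7), Spp1 982 (1906 to 2403) and Mki67 33.0 (89.0 to 129.6). All 5 genes rank with the inflammatory, injury or cell division lists, from which many of the named genes were taken. This library also had the least Havcr1 of the 5. WT folic acid 1 stood low in transporters of several nephron segments and in Slc35f2. Slc5a12 was 362 (662 to 832), Slc12a3 781 (3117 to 4172), Slc26a4 27.2 (111 to 139), and Slc35f2 37.4 (60.8 to 70.5). The same library stood high in Gm42418, at 1618288 (339772 to 394717). Among Havcr1-low kidneys WT vehicle 2, which held both Xist and Y-linked RNA, stood low in H2-Eb1 at 298 (417 to 529.8).

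The folic acid effect differed between G3 and WT in 15 of the 87 named genes by the limma interaction term, given as the log2 effect in G3 minus that in WT with the adjusted p over all 14651 genes in brackets. Fcgr1 had 3.89 (0.0123), and its 4 G3 vehicle libraries had no read. As said above, Fcgr1 entered the test through its values in Havcr1-high libraries only. Of the other genes, Aqp4 at -2.71 (0.00514), Lrp2 at -1.21 (0.0273), Ppargc1a at -0.63 (0.0287), Bhmt at -4.39 (0.0306) and Hpd at -3.35 (0.00334) had a lower effect in G3, while other tubular genes named did not pass, such as Slc34a1 at 0.56 (0.597) and Slc12a3 at -0.50 (0.779). The other 9 were genes of the sex chromosomes or genes that differ between male and female kidneys: Slco1a1 at 11.92 (0.00191), Cyp7b1 at 8.78 (0.00260), Prlr at -6.60 (0.0117), Cyp4a14 at -5.57 (0.0113), Xist at -9.42 (0.0468), Ddx3y at 10.35 (0.000732), Kdm5d at 10.04 (0.000487), Eif2s3y at 7.95 (0.00469) and Uty at 10.49 (0.000487). Xist and Y-linked RNA were unequally spread over the 4 label groups, and with the Y-linked share as a term 2 genes in all were called for this difference, against 560 without it, so sex and genotype cannot be told apart for these genes.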

How the results depend on the processing

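No paired analysis was possible because the labels give no replicate numbers. The 217 higher and 51 lower non-overlapping genes became 555 and 131 at a Havcr1 threshold of 30, 1753 and 1911 among folic acid libraries only, 552 and 538 among G3 libraries only, and 326 and 242 without WT folic acid 1 and the 2 libraries with both Xist and Y-linked RNA, an alternative added after seeing the data. Fewer libraries make separation easier by construction. The higher genes became 143 with a filter of at least 50, the lower ones 105 without the 2 libraries of both RNAs. Leaving out 1 library gave 225 to 611 higher and 55 to 164 lower. Of the 41 named genes that did not overlap, 29 remained apart at threshold 30 and 37 with quantile scaling. All 41 stayed apart in every leave-one-out, which was fixed in advance, since leaving out a library cannot make separated groups overlap. Nor can a stricter filter or a subset of libraries. With the filter of 50 the count was 34, because the other genes no longer passed it. For the same reason it was 36, 33 and 39 within libraries of Xist, of Y-linked RNA and of the shared title series.
The 209 higher and 53 lower calls by label became 320 and 105 with labelled sex, 0 and 0 with the Y-linked share, 6 and 2 without the trend, 580 and 327 with library weights, 620 and 242 with DESeq2, 7 and 3 without the 2 libraries of both RNAs, and 1 and 4 with the Y-linked share and without those 2, the last added after seeing the data. Higher calls became 124 with the filter of 50 and 402 with edgeR, lower calls 32 with quantile scaling. Leaving out 1 library gave 0 to 476 higher and 0 to 214 lower. The 560 genotype differences became 103 with labelled sex, 2 with the Y-linked share, 292 without the trend, 1548 with weights, 966 without the 2 libraries, 0 with both changes, 586 with edgeR, 812 with DESeq2 and 253 to 926 on leaving out 1 library. The causes were not tested. Of the named high minus low differences 2587 values moved by less than the larger SD of the 2 groups and 22 by more. Leaving out 1 library cannot move a difference by that much, so the leave-one-out values among the 2587 were fixed in advance. Of list medians 738 moved by less than the SD of the differences among the list's own members and 28 by more. That measure is not a spread between libraries, and a median can change sign within it. Of called named genes 375 alternatives kept and 318 lost the call, with no direction reversed. The level of Havcr1, at 22 to 89 reads in high libraries, limits how finely they can be ranked.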

Other observations

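The 2 lists below were put together after their values were seen, so their shared direction is a description of these libraries. Sgk1 was not the only corticosteroid-induced gene that was lower in Havcr1-high kidneys. All 8 genes of a list of targets that glucocorticoid or mineralocorticoid receptors are known to induce had a lower mean log2 level, with a median of log2 -0.50. Klf9, a transcription factor, was 1631 to 2204 in the Havcr1-high and 2463 to 4308 in the Havcr1-low libraries, and with Sgk1 was 1 of 2 that did not overlap. Zbtb16 differed by -0.78 in mean log2 level, but WT folic acid 1 had the highest value of all 15 libraries (317, against at most 112 in Havcr1-low ones) and the plain mean was 81.4 in Havcr1-high and 68.4 in Havcr1-low kidneys. The other differences were -0.75 for the clock gene Per1, -0.38 for Dusp1, -0.29 for Tsc22d3 (GILZ), -0.28 for Scnn1a, a subunit of the epithelial sodium channel, and -0.13 for Fkbp5. Tsc22d3 was also highest in WT folic acid 1 (281, against at most 240.3 in Havcr1-low libraries). Of the 8 genes 6 overlapped between the groups.

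Matrix proteases and their inhibitors did not go one way. Of 10 such genes 8 were described, and Mmp7, Mmp2, Mmp14, Mmp3 and Timp1 were higher in every Havcr1-high library. Mmp3 (stromelysin 1) was 5.99 to 20.7 in the Havcr1-high and 0 to 4.88 in the Havcr1-low libraries. Mmp12, the elastase of macrophages, was 5.64 to 32.7 in the Havcr1-high and 0 to 5.69 in the Havcr1-low libraries and overlapped by less than 1 read. Timp2 differed by 0.93, and Timp3, the inhibitor bound to matrix, by -0.31, the only negative value among the 8. Mmp9, which differed by -0.63, was not described because it stayed below 10 in every library. Its highest value was 7.26 in the Havcr1-high and 7.82 in the Havcr1-low libraries. Mmp7, Mmp3 and Mmp12 reached 10 in Havcr1-high libraries only and were described through those values. How many of the 8 were higher thus depends in part on the filter.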
